A study of Saccharomyces cerevisiae with 21 samples.

Results

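The 4 libraries described here are the whole cell poly(A) RNA libraries of budding yeast whose labels name the Nab2 IDR mutant: 2 from cells starved of glucose for 24 h and 2 from unstressed cells, out of 21 libraries in the series. They were chosen by their labels alone. Starved cells had been washed 3 times in synthetic complete medium lacking glucose and kept in it, and unstressed cells were harvested in mid-log growth with 2% glucose. The IDR mutant is a MAT alpha strain of the BY4742 background (alleles ura3Δ0, lys2Δ0, leu2Δ0 and his3Δ1). Its NAB2 gene, at its own locus, lacks the codons for residues 104 to 263, which the labels call the QQQP and RGG stretches, and carries a viral (SV40) nuclear localization signal, yEGFP and the HISMX marker. All 4 libraries share this allele and cassette, so the deletion is not tested by the comparison within the strain. In the last paragraphs the response is set against that of an interface mutant (Nab2 F450A, tagged) and a tagged wild type. Both have the same background and media, with 2 starved and 2 unstressed whole cell libraries each. The deletion and the viral signal occur together in the IDR mutant, and the part of each was not tested. Nuclear extract libraries (9) were not used here.

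Nab2 is a nuclear protein that binds poly(A) RNA through zinc fingers, helps to limit tail length and packages mRNA for export through the nuclear pore. Its disordered stretch, the IDR, holds glutamine-rich repeats and an arginine-glycine-rich domain that the importer Kap104 recognises, and the viral signal in the construct is itself a nuclear import signal. Yeast that run out of glucose shut down ribosome production, switch on genes kept silent by glucose for the use of other carbon sources through the Snf1 kinase, store glycogen and trehalose, and may enter quiescence.

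The reference sequence at both ends of the deleted stretch is shown because it defines the strain. It is given 5′ to 3′ on the coding (minus) strand, with deleted bases in capitals and retained bases in lower case.
first deleted codons: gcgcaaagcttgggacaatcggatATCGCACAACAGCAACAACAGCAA
last deleted codons: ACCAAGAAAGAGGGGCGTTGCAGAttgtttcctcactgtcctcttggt
These lie at chrVII:280191-280238 and chrVII:279711-279758 of assembly R64. The deletion spans 279735 to 280214, takes 480 bases (30.4%) of the counted NAB2 feature and holds 160 of its 525 residue codons. Of these, 47 encode glutamine, 10 places hold 3 glutamine codons followed by a proline codon, and all 4 arginine-glycine-glycine codon runs of the gene fall inside it.

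NAB2 (YGL122C, chromosome VII, 278946 to 280523) stood at 150.5 and 145.0 CPM in starved cells and at 179.2 and 198.3 CPM in unstressed cells. CPM here are counts relative to the library size after edgeR's trimmed-mean (TMM) scaling, and each pair of values gives replicates 1 and 2. The libraries did not overlap, but the difference (log2 fold change -0.35 ± 0.39, ± SE throughout, adjusted p = 0.44) did not pass the test. The labelled markers matched the strain: LEU2, LYS2 and URA3, which the parent lacks, had between 0 and 2 counts in each of the 4 libraries. HIS3 had 43 and 87 counts in starved cells and 397 and 346 in unstressed cells, and its fall (-1.21 ± 0.36, adjusted p = 0.0141) lost the call with some single libraries left out. All 3 alpha-specific genes were present in both states.

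Depth was 5248248 and 5323510 counts in the starved libraries and 9290238 and 10551714 in the unstressed ones, over 6600 features. Replicates differed by more than sampling noise, with a chi-square per degree of freedom of 6.33 in the starved pair and 6.41 in the unstressed pair. Their levels ranked alike (Spearman 0.993 and 0.997 over genes). Nothing in the labels tells if replicates are separate cultures, and p-values therefore measure only the spread between libraries. That spread was estimated in 1 fit over all 12 whole cell libraries, so the other strains add to it. With the IDR mutant libraries fitted alone, edgeR called 4830 genes at an adjusted p under 0.05, against 3941 in the main fit. Values are relative to all counted poly(A) RNA, and fewer RNA molecules per cell cannot be told apart from a smaller share. Without TMM scaling each log2 ratio of starved to unstressed cells would be 0.40 lower.

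Starvation changed most of the measured genes of the IDR mutant. Of 5853 genes tested, 67.3% changed: 1932 rose (33.0%) and 2009 fell (34.3%) by edgeR's quasi-likelihood test, where a gene rose or fell if its Benjamini-Hochberg adjusted p was under 0.05. The median over all tested genes was -0.05. Rises reached further than falls: 436 genes rose by at least 3 on the log2 scale and 52 fell by as much, and the called genes had medians of 1.76 and -1.32. Fitted changes of genes with no counts in a group depend on edgeR's prior count and are not bounds. Against a 2-fold change in place of no change, 1119 genes (19.1%) rose and 881 (15.1%) fell. Starved libraries lay wholly above unstressed ones for 2620 genes (44.8%) and wholly below for 2749 (47.0%), so the lack of overlap alone says little with 2 libraries a side.

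**Figure D1:**
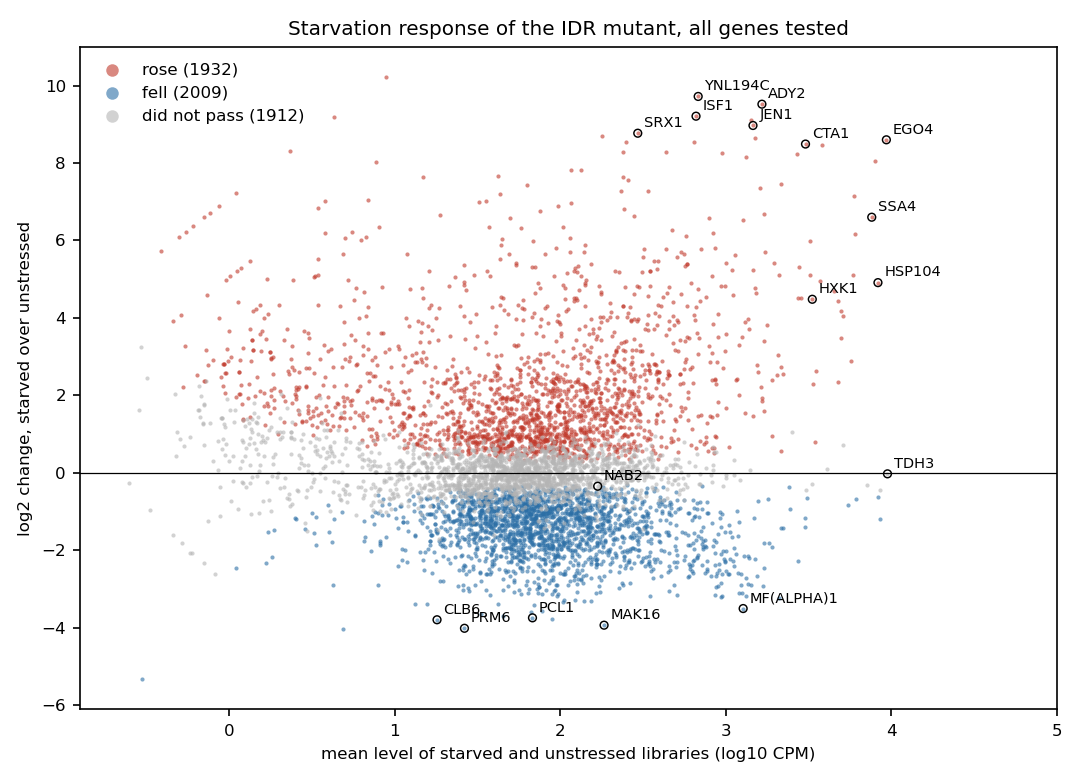
Each point is 1 of 5853 genes tested in the IDR mutant, with its mean level over starved and unstressed libraries (log10 CPM, x) and its log2 change, starved over unstressed (y); red rose, blue fell, grey did not pass. The 1932 rises reach further from 0 than the 2009 falls, and NAB2 lies among the genes that did not pass.

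The largest rises are given here among genes with at least 10 CPM in each library of the higher state and under 50% of the feature overlapped by another. YNL194C, of the Sur7 family of eisosome membrane proteins, had 1256 and 1466 CPM in starved cells, against 1.79 and 1.42 in unstressed cells, a rise of 9.72 ± 0.30 (adjusted p = 4.36e-08). ADY2, an acetate permease, had 3189 and 3418 CPM in starved cells and 4.979 and 4.001 in unstressed cells (9.52 ± 0.22, adjusted p = 2.21e-08). JEN1, the lactate and pyruvate permease, had 2816 and 3016 CPM in starved cells and 6.20 and 5.42 in unstressed cells (8.97 ± 0.40). In all 3 genes the unstressed libraries lay under 10 CPM. The 15 leading genes, with rises of 8.28 to 9.72, also held OYE3, an NADPH oxidoreductase (9.12), SRX1, sulfiredoxin (8.77), HBN1 (8.54), PHO89, a sodium-coupled phosphate transporter (8.54), CTA1, the peroxisomal catalase (8.49), HSP30 (8.47), the aromatic decarboxylase gene ARO10 (8.29), ISF1 (9.21), EGO4 (8.60) and the respiratory or stationary phase genes RGI2 (8.71), SPG4 (8.65) and SPG1 (8.28).

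Under the same limits the largest falls were smaller. PRM6, a pheromone-regulated gene, had 4.31 and 1.77 CPM in starved cells and 46.3 and 53.0 in unstressed cells (-4.02 ± 0.31). MAK16, a large subunit assembly factor, had 25.0 and 19.9 CPM in starved cells and 330.2 and 360.6 in unstressed cells (-3.94 ± 0.56). CLB6, an S-phase cyclin, had 2.80 and 1.99 CPM in starved cells and 33.1 and 34.1 in unstressed cells (-3.80 ± 0.30). Of the other 12 leading falls, between -3.77 and -3.31, ALB1, CGR1, RRP36, NIP7, CIC1 and RRS1 act in ribosome assembly, PCL1 encodes a G1 cyclin, MF(ALPHA)1 the alpha-factor pheromone and DCD1 deoxycytidylate deaminase; REX4, AQR1 and YLR363W-A complete them.

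The most abundant features held a larger share of the starved RNA. Per length, in transcript levels scaled to a fixed total (TPM), HOR7 reached 48891 and 45985 in starved cells, against 1912 and 1953 in unstressed cells. EGO4 reached 49738 and 44449 TPM in starved cells and TMA10, which encodes a protein linked to ribosomes, 46056 and 45788, against 172.3 and 172.5 TPM (EGO4) and 242.9 and 247.1 TPM (TMA10) in unstressed cells. These 3 were the highest features of both starved libraries on average, and were picked for that rank. The 10 highest features together held 24.2% and 23.8% of TPM in starved cells and 8.80% and 9.10% in unstressed cells. In the starved list they were followed by SPO24, HSP12, AHP1, TRX2, SOD1, GPX2 and CCW12, of which AHP1, TRX2, SOD1 and GPX2 encode antioxidant proteins. In unstressed cells the leading features were the glycolytic genes FBA1, GPM1 and TDH3, ADH1, the elongation factor genes TEF1 and TEF2 and the ribosomal protein genes RPS31, RPS20 and RPL38, with CCW12 the only feature in both sets.

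Short promoter stretches of strongly changed genes are shown here with letters that known regulators bind, since some lists below are named after those regulators. Each is 30 bases, 5′ to 3′ on the gene's strand, with a chosen match in capitals. A further match of the same letters, as in SPI1, is left in lower case. A match on the other strand appears as its reverse complement.
SPI1, AGGGG: tccttcccctcaCCCCTcggcttgttagaa
CTT1, AGGGG: catttatcgtatCCCCTactgctacacgta
BTN2, GAANNTTC: ttttttttctaGAAAGTTCcggaaaattgc
HSP42, GAANNTTC: taaaagttctgGAAGGTTCgcgaattgaga
ADY2, carbon source response element core: ccagatttgCGGTTGGGCGGctatttcggt
PCK1, carbon source response element core: atggataggCGGATAAAGGGcccaaacagg
BRX1, GATGAG: aaattttagatgCTCATCgcgatggttctc
UTP9, AAAATTTT: aacgaggtgcgAAAATTTTtttcttctaaa
MET16, TGACTC: aaagccacaacaTGACTCagcaaatctcga
LYS1, TGACTC: ttcagcgacaaaGAGTCAtaaagtcatcct
The stretches lie at chrV:468100-468129 (SPI1, plus strand), chrVII:654489-654518 (CTT1, plus), chrVII:772104-772133 (BTN2, plus), chrIV:806372-806401 (HSP42, plus), chrIII:133437-133466 (ADY2, minus), chrXI:630781-630810 (PCK1, plus), chrXV:186852-186881 (BRX1, minus), chrVIII:491754-491783 (UTP9, plus), chrXVI:877763-877792 (MET16, minus) and chrIX:420853-420882 (LYS1, minus) of R64.

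Among 5629 promoters, taken as the 400 bases before the start codon and searched on both strands, AGGGG, the stress response element of Msn2 and Msn4, was in 29.3% of all, in 42.6% of those of genes that rose and in 19.8% of those of genes that fell. In the Msn2/4 list it was in 21 of 24 promoters. The ribosome biogenesis letters showed the opposite order: GATGAG, the PAC element, was in 17.4% of risers, 32.0% of fallers and 41 of 43 large subunit assembly genes, against 23.3% of all promoters. AAAATTTT, the RRPE element, was in 5.67% of risers, 20.0% of fallers and 27 of 36 small subunit processome genes, against 11.5% of all. The core of the carbon source response element, bound by Cat8 and Sip4, was in 20.6% of risers, 13.4% of fallers and 8 of 16 genes of the gluconeogenesis list, against 16.0% of all. GAANNTTC, the heat shock element core, was in 15 of 22 chaperone genes and 15.7% of all promoters, and was not more frequent in risers (13.8%) than in fallers (17.8%). TGACTC, a Gcn4 site, was in 38 of 57 amino acid biosynthesis genes and 10.6% of all. It was about as frequent in risers (11.9%) as in fallers (10.3%). Of the matches of each motif, 0.0% to 8.07% overlapped a match of another of these motifs. These are descriptions with no test, and a match is not a shown binding site.

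Genes for the uptake of scarce sugar rose, and those for abundant sugar did not. Of 10 genes for derepressed hexose transport and sucrose use, 9 rose and none fell (median 3.92). The high-affinity transporter gene HXT2 had 1185 and 1235 CPM in starved cells and 74.5 and 69.6 in unstressed cells (4.07 ± 0.24). The near-identical HXT6 and HXT7, between which counting may have split reads, stood at 4.78 ± 0.15 and 3.89 ± 0.16. SUC2, invertase, stood at 3.95 ± 0.22. Of the low-affinity transporters HXT1 fell (-1.18 ± 0.25), while HXT3 (-0.13 ± 0.18, adjusted p = 0.54) did not pass. Of 7 sensing genes 4 rose, led by MTH1, a Rgt1 corepressor, with 283.7 and 295.0 CPM in starved cells and 20.9 and 16.2 in unstressed cells (3.96 ± 0.23). The low-glucose sensor gene SNF3 rose by 2.16 ± 0.26, and RGT2, the high-glucose sensor gene, stood at 0.18 ± 0.33. STD1, the paralog of MTH1, fell (-1.79 ± 0.23).

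In the Snf1 pathway the largest rises were in genes for transcription factors, and SNF1, the kinase, stood at -0.06. Of 17 genes 7 rose (41.2%) and 3 fell (17.6%), against 33.0% and 34.3% of all genes (median 0.36). CAT8, the activator of gluconeogenic genes, had 233.7 and 228.7 CPM in starved cells and 2.35 and 1.33 in unstressed cells (6.97 ± 0.26). SIP4, its relative, rose by 4.81 ± 0.29 and ADR1, the activator of ethanol and fatty acid use, by 3.91 ± 0.34. MIG1, the glucose repressor, rose as well (2.25 ± 0.27). Among kinase subunits SIP2 rose (2.36 ± 0.18) and SNF4, the activating gamma subunit, fell (-1.56 ± 0.32). The upstream kinase genes SAK1 (-0.55 ± 0.15) and ELM1 (-1.20 ± 0.16) fell too.

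Genes of gluconeogenesis and acetate use rose as a block. Of 16 genes 14 rose and none fell, with a median of 4.71. MLS1, malate synthase of the glyoxylate cycle, had 227.4 and 233.6 CPM in starved cells and 0.94 and 1.08 in unstressed cells (7.81 ± 0.27). PCK1, the committed enzyme of gluconeogenesis, had 449.4 and 515.6 CPM in starved cells and 3.66 and 4.84 in unstressed cells (6.82 ± 0.36). ICL1, isocitrate lyase, rose by 4.30 ± 0.17, FBP1, fructose-1,6-bisphosphatase, by 5.12 ± 0.41, ACS1, acetyl-CoA synthetase, by 5.78 ± 0.30 and the mitochondrial carrier gene SFC1 by 5.98 ± 0.36. ATO3 (0.44) and MAE1 (-0.50) did not pass. The list held 1.13 ± 0.0371% of all counts in starved cells and 0.104 ± 0.00237% in unstressed cells (SD, n = 2 each).

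Genes of the acetyl unit carriers and of peroxisomal fatty acid oxidation rose with them. All 5 genes of the carnitine shuttle rose, by 3.86 (AGP2) to 5.71 (CRC1). YAT2, a carnitine acetyltransferase, had 1051 and 1147 CPM in starved cells and 22.4 and 20.9 in unstressed cells (5.66 ± 0.34). Of 17 genes of beta-oxidation 15 rose (median 3.54). POX1, the acyl-CoA oxidase of the pathway's opening step, had 449.0 and 507.4 CPM in starved cells and 1.69 and 3.00 in unstressed cells (7.65 ± 0.41). POT1, thiolase, rose by 7.28 ± 0.28, FOX2, the multifunctional enzyme, by 5.21 ± 0.20 and PXA1, of the fatty acid importer, by 4.38 ± 0.25. ANT1, the peroxisomal adenine nucleotide carrier, fell (-0.75 ± 0.23), a call lost with some single libraries left out. Peroxisome assembly moved less: 12 of 20 genes rose (median 0.73). Of these PEX18, an import co-receptor for thiolase, rose by 6.35 ± 0.24.

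**Figure D2:**
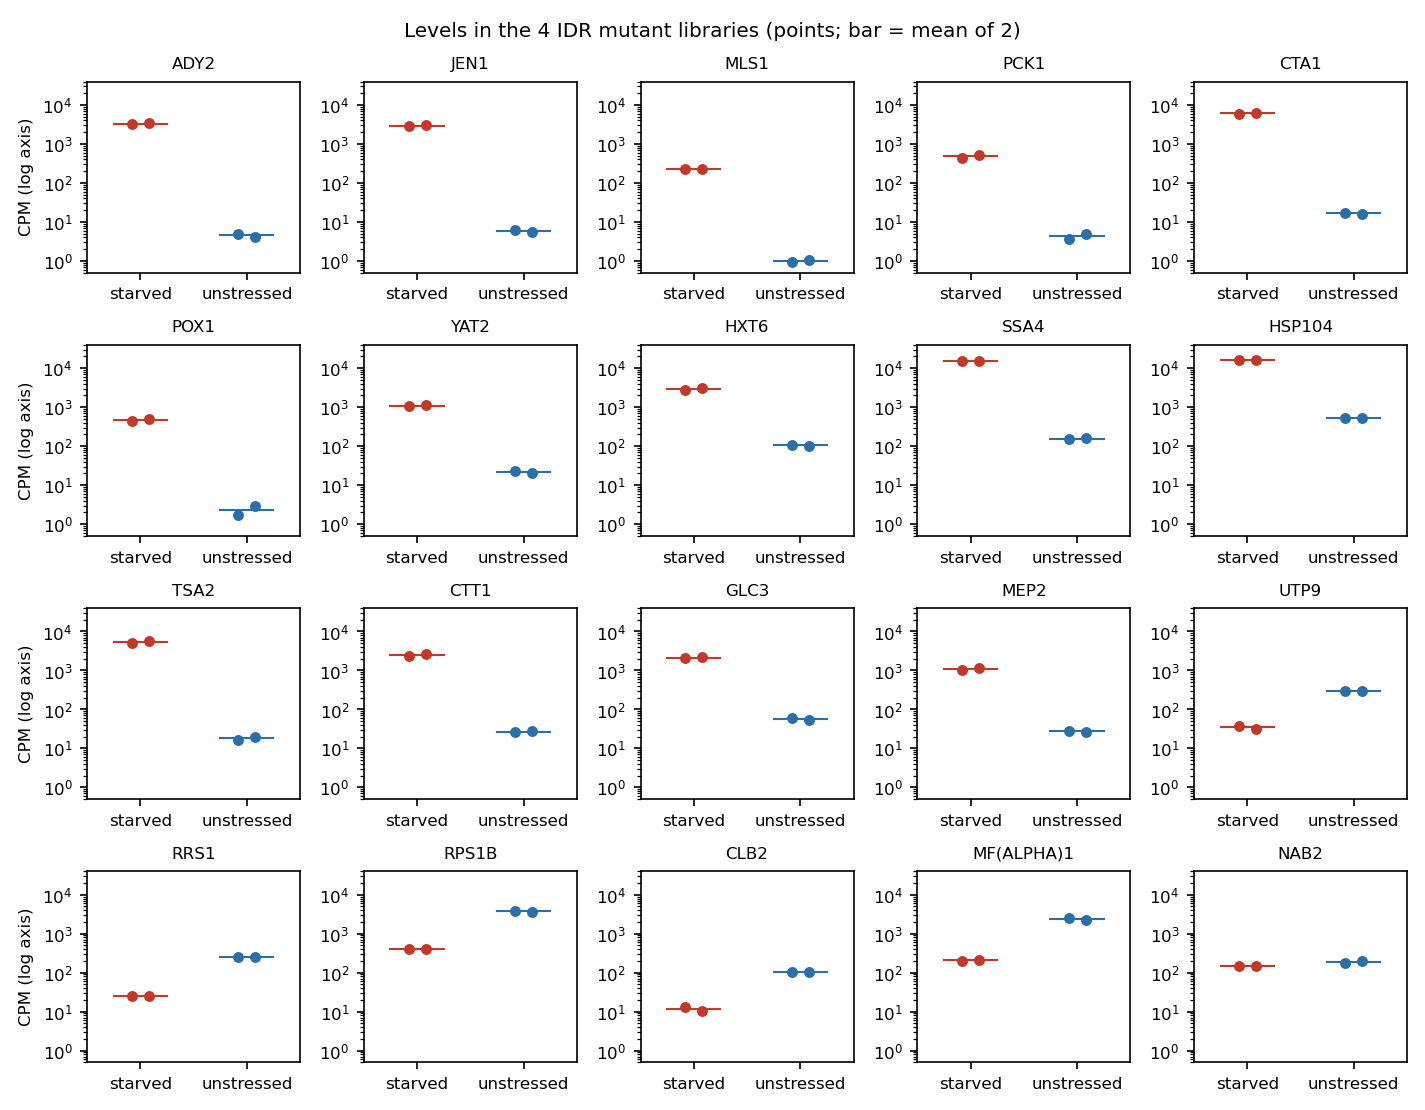
Levels (CPM, log axis) of 20 genes in the 2 starved (left, red) and 2 unstressed (right, blue) IDR mutant libraries, with the mean of each pair as a bar. Carbon source, chaperone, antioxidant and nitrogen genes lie higher in starved cells, ribosome, cyclin and pheromone genes lower, and NAB2 at 150.5 and 145.0 against 179.2 and 198.3 CPM.

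In glycolysis a few isoform genes rose and several abundant enzyme genes fell. Of 14 genes 3 rose (TDH1, ENO1 and PYK2), 6 fell and 5 did not pass. These were 21.4% rises and 42.9% falls, against 33.0% and 34.3% of all genes. The median of -0.13 changed sign without starved replicate 1. FBA1, aldolase, had 4928 and 5476 CPM in starved cells and 11717 and 12188 in unstressed cells (-1.20 ± 0.14). TPI1 fell by 1.43 and PGK1 by 0.66, while TDH3, the main glyceraldehyde-3-phosphate dehydrogenase gene, stood at -0.03 ± 0.25 (adjusted p = 0.911) and CDC19, the main pyruvate kinase gene, at 0.71 ± 0.32 (adjusted p = 0.0774). TDH1 had 5954 and 6709 CPM in starved cells and 89.5 and 109.1 in unstressed cells (5.99 ± 0.20). Near-identical TDH2 and TDH3 reads may have been split between them by counting. Of 16 genes of pyruvate and ethanol metabolism 10 rose, among them ALD4, the mitochondrial aldehyde dehydrogenase gene (5.41 ± 0.32), ALD6, the cytosolic one (3.47 ± 0.18), and ADH2, the ethanol-oxidising enzyme (1.82 ± 0.24). ADH1 (-0.33 ± 0.14, adjusted p = 0.069) and PDC1 (0.09 ± 0.31) of fermentation did not pass.

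In 18 pairs of related genes, named with these values known and so given as a description, the balance between the partners differed between starved and unstressed libraries. The share of the first-named gene, per length, was 83.6% and 83.5% in starved cells and 22.7% and 22.1% in unstressed cells for the hexokinase genes HXK1 and HXK2. HXK1 rose (4.48 ± 0.23) and HXK2 did not pass (0.34 ± 0.15). For the phosphoglucomutase genes PGM2 and PGM1 it was 95.2% and 95.2% in starved cells and 39.3% and 38.4% in unstressed cells. For the transaldolase genes NQM1 and TAL1 it was 79.6% and 77.4% in starved cells and 5.47% and 5.60% in unstressed cells. For the elongation factor 3 genes HEF3 and YEF3 it was 16.2% and 17.2% in starved cells and 0.333% and 0.401% in unstressed cells. For the protein kinase A catalytic subunit genes TPK2 and TPK3 it was 95.0% and 96.3% in starved cells and 25.5% and 25.1% in unstressed cells, with TPK2 up by 3.71 and TPK3 down by 2.33. RAS1 and RAS2 went the other way, with 2.14% and 2.29% in starved cells and 19.3% and 19.9% in unstressed cells.

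**Figure D3:**
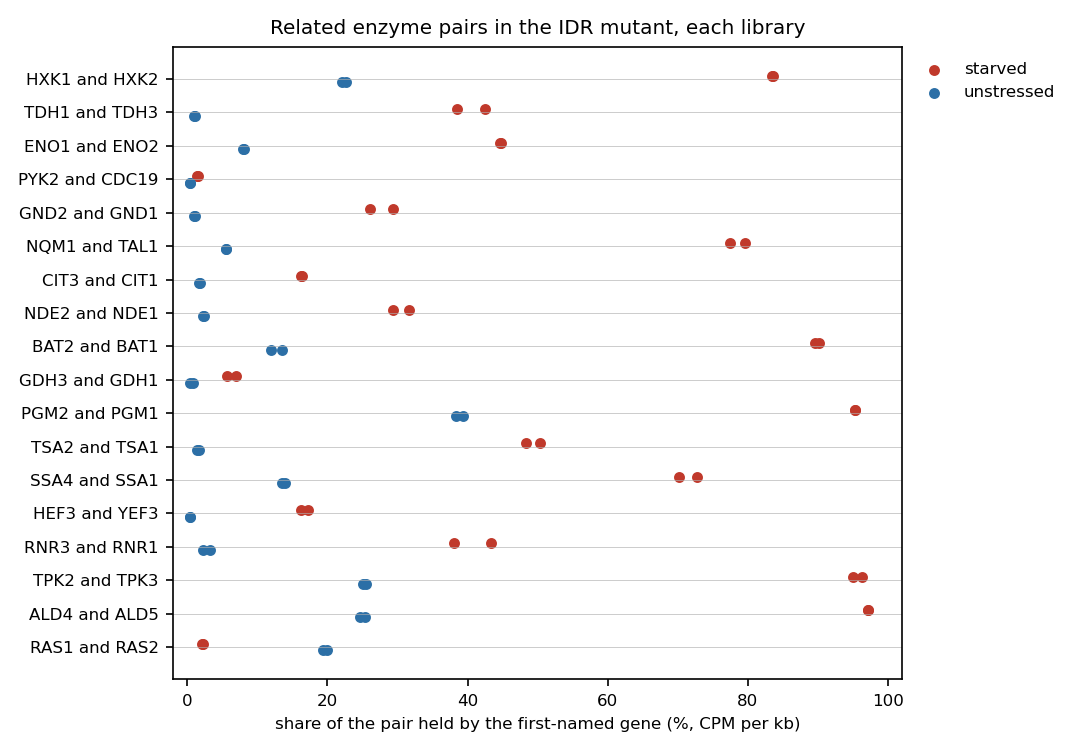
Share of each pair's level (%, CPM per kb, x) held by the first-named gene in each of the 2 starved (red) and 2 unstressed (blue) IDR mutant libraries, for 18 gene pairs (y). The starved points lie right of the unstressed ones in every pair other than RAS1 and RAS2, as in HXK1 and HXK2 with 83.6% and 83.5% against 22.7% and 22.1%.

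In the pentose phosphate pathway 5 genes rose and 5 fell of 11 (45.5% each, against 33.0% and 34.3% of all genes). ZWF1, the entry enzyme that makes NADPH, had 1326 and 1488 CPM in starved cells and 182.4 and 208.0 in unstressed cells (2.85 ± 0.35). The minor isoform genes GND2 (3.97), TKL2 (3.26), SOL4 (2.34) and NQM1 (5.79) rose, while GND1 (-1.21), TKL1 (-0.70), SOL3 (-0.79), RPE1 (-0.74) and RKI1 (-2.10) fell. TAL1, the partner of NQM1, did not pass (-0.17 ± 0.16, adjusted p = 0.364).

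Of 17 genes of the tricarboxylic acid cycle 12 rose (median 0.89). CIT1, citrate synthase, had 1390 and 1403.5 CPM in starved cells and 268.0 and 264.5 in unstressed cells (2.39 ± 0.13), and CIT3 rose by 5.89 ± 0.26. LPD1 fell (-0.42 ± 0.12), a call that was lost with some single libraries left out. Of 23 nucleus-encoded genes of the respiratory chain 16 rose and none fell (median 1.45), with COR1 of complex III at 2.58 ± 0.16. In complex IV, COX5B (1.63), COX7 (2.88) and COX9 (1.06) rose, while COX4, COX5A, COX6, COX8, COX12 and COX13 (-0.52 to 0.77) did not pass. Of 14 ATP synthase genes 4 rose (28.6%, against 33.0% of all genes), ATP1, ATP2, ATP15 and ATP18. The list median was 0.15, against -0.05 over all genes, and ATP19 fell, with a call lost when some single libraries were left out. Of 64 mitochondrial ribosome genes 43 fell (median -1.01), such as RSM22 (-2.14 ± 0.19), and 2 rose, RSM10 (1.59 ± 0.43) and MRP20 (0.99 ± 0.26), both of which lost the call with some single libraries left out.

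Chaperones of the heat shock response took a larger share of RNA. Of 22 Hsf1-type genes 19 rose (median 1.94), and the list held 8.61 ± 0.433% of counts in starved cells and 1.53 ± 0.0152% in unstressed cells (SD, n = 2 each). SSA4, the inducible Hsp70, had 15322 and 14876.5 CPM in starved cells and 149.7 and 162.6 in unstressed cells (6.60 ± 0.20). HSP104, the disaggregase, had 16196 and 15999.8 CPM in starved cells and 532.7 and 536.0 in unstressed cells (4.91 ± 0.16). BTN2, which gathers misfolded proteins, rose by 7.14 ± 0.48, the small heat shock gene HSP42 by 6.17 ± 0.23 and HSP82, the inducible Hsp90, by 4.05 ± 0.27. HSC82, its constitutive partner, stood at -0.29 ± 0.14 (adjusted p = 0.089). YDJ1, a J-protein, fell (-0.93 ± 0.28), a call lost with some single libraries left out.

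General stress genes rose in nearly every member: 23 of 25 genes in the Msn2/4 list rose and none fell (median 3.24). CTT1, cytosolic catalase, had 2395 and 2627 CPM in starved cells and 26.8 and 27.4 in unstressed cells (6.53 ± 0.32). SPI1, a cell wall protein, rose by 6.69 ± 0.28, DDR2 by 6.12 ± 0.20 and HSP12, a membrane protectant, by 4.69 ± 0.55. PHM8 (0.54) did not pass, nor did DOA1 (0.10), a gene of ubiquitin turnover kept in that list. SPI1 and CTT1 are the genes whose AGGGG letters are shown above.

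Of 21 genes of peroxide and superoxide defence 18 rose (median 2.88), and their share of counts was 5.95 ± 0.21% in starved cells and 0.73 ± 0.00462% in unstressed cells (SD, n = 2 each). TSA2, a peroxiredoxin barely expressed in glucose, had 5147 and 5655 CPM in starved cells and 16.2 and 19.8 in unstressed cells (8.23 ± 0.36). TRR1, thioredoxin reductase, had 8707 and 9573 CPM in starved cells and 428.2 and 414.6 in unstressed cells (4.44 ± 0.18), and its substrate gene TRX2 rose by 4.51 ± 0.38. GPX2 rose by 5.32 ± 0.42, CCP1, cytochrome c peroxidase, by 4.94 ± 0.21 and SOD2, the mitochondrial superoxide dismutase gene, by 3.62 ± 0.19. Not all thioredoxins followed: TRX3 stood at -0.07 and DOT5 at -0.28, and TRX1 fell (-0.96 ± 0.32), a call lost with some single libraries left out.

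Storage carbohydrate genes rose in both synthesis and breakdown. All 7 trehalose genes rose, from NTH2 (1.73) to ATH1 (3.52), with the synthase gene TPS1 at 1858 and 2073 CPM in starved cells and 358.9 and 368.6 in unstressed cells (2.43 ± 0.24). Of 13 glycogen genes 12 rose (median 3.15): GLC3, the branching enzyme, had 2095 and 2165 CPM in starved cells and 59.7 and 53.4 in unstressed cells (5.23 ± 0.22), GSY2, glycogen synthase, rose by 3.15 ± 0.14 and GPH1, the phosphorylase, by 3.47 ± 0.25. PGM1 fell (-1.82 ± 0.14) and PGM2, the other phosphoglucomutase gene, rose (3.15 ± 0.23). In glycerol metabolism 8 of 11 genes rose, including GUT1 and GUT2 of glycerol use (3.92 and 3.39), while the glycerol phosphatase genes GPP1 (-1.58) and GPP2 (-1.04) fell.

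Signalling genes tied to quiescence changed on both sides. Of 23 regulators 15 rose and 2 fell (median 1.39). GPA2, the G protein alpha subunit of glucose sensing, had 1373 and 1554 CPM in starved cells and 59.6 and 66.5 in unstressed cells (4.54 ± 0.24). The transcription factor gene GIS1 rose by 4.31 ± 0.30, the kinase gene YAK1 by 3.07 ± 0.27, the Rim15 effector gene IGO1 by 2.18 ± 0.28 and BCY1, the inhibitory subunit of protein kinase A, by 2.10 ± 0.23. TPK3 (-2.33 ± 0.19) and RAS1 (-2.95 ± 0.19) fell. Of 15 stationary phase genes 14 rose (median 3.44), for example RGI1 (5.80 ± 0.19) and FMP16 (3.91 ± 0.17), and SNO1 (-0.22) did not pass. In the eisosome, the membrane furrow that persists in resting cells, 10 of 13 genes rose, PUN1 (5.10 ± 0.16) and LSP1 (1.29 ± 0.14) among them, PIL1, the main scaffold gene, did not pass (0.53 ± 0.22, adjusted p = 0.06) and SUR7 fell (-1.80 ± 0.14). Of 27 cell wall genes 11 rose (40.7%, against 33.0% of all genes), GSC2, a glucan synthase subunit, by 4.12. In the same list 6 fell (22.2%, against 34.3% of all genes), such as CHS3, chitin synthase (-1.34).

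Self-digestion genes rose. Of 25 autophagy genes 20 rose (median 1.22): ATG8, the membrane-coating ubiquitin-like protein, had 313.0 and 320.2 CPM in starved cells and 24.5 and 23.2 in unstressed cells (3.73 ± 0.22), ATG1, the initiating kinase, rose by 4.62 ± 0.32 and ATG39, a receptor for the nuclear envelope, by 4.43 ± 0.23. Of 12 vacuolar hydrolase genes 11 rose, led by CPS1, carboxypeptidase S (4.74 ± 0.15), and VPH1, a subunit of the vacuolar proton pump kept in that list, fell (-0.79). Of the 15 vacuolar ATPase genes, which encode that pump, 10 fell, none rose and 5 did not pass (median -1.10). Of 34 proteasome genes 12 fell and 3 rose, RPN14, RPN2 and PRE8 (median -0.31), a share of falls near the 34.3% of all genes. Of 20 ubiquitin and Rsp5 genes 14 rose, with the arrestin gene CSR2 at 6.63 ± 0.32, the ubiquitin gene UBI4 at 2.09 ± 0.17 and VID24 of the GID ligase, which degrades gluconeogenic enzymes, at 2.76 ± 0.25.

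**Figure D4:**
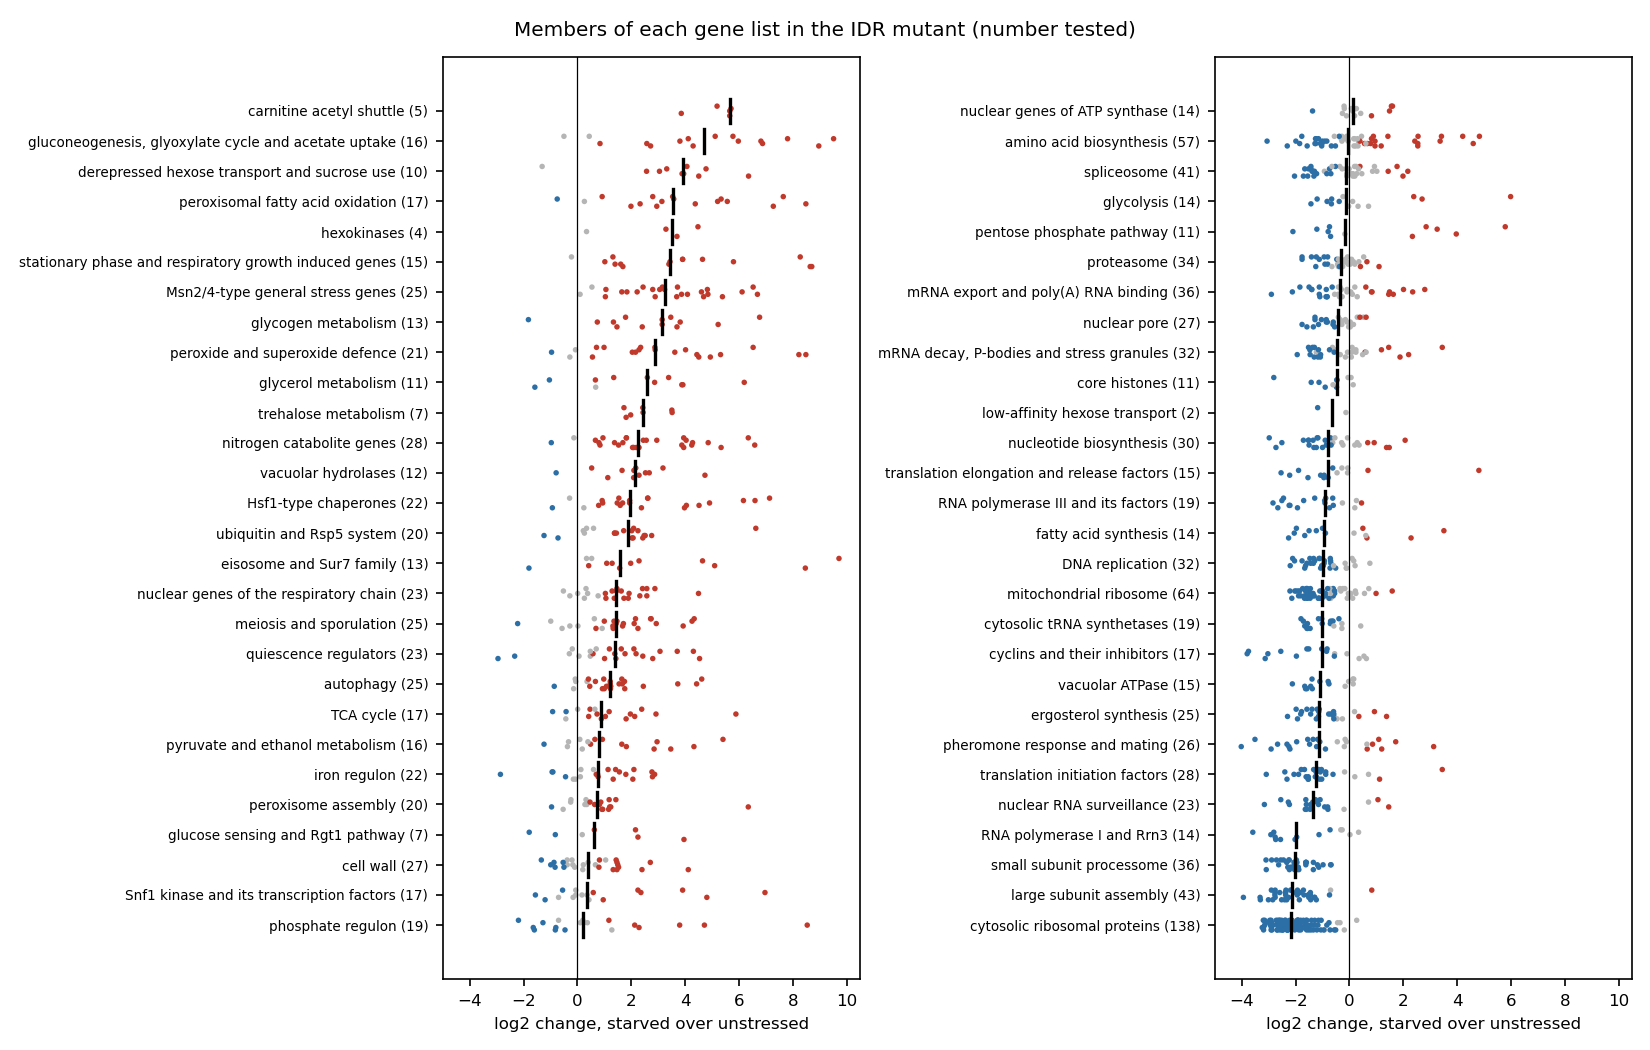
Log2 change, starved over unstressed, of the tested members of 56 gene lists in the IDR mutant, ordered by list median (black bar); red rose, blue fell, grey did not pass, and the number tested is in brackets. The carnitine shuttle (median 5.66) and gluconeogenesis (4.71) lie at the top and the cytosolic ribosomal proteins (-2.16) at the bottom.

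Nitrogen scavenging genes rose. Of 28 nitrogen catabolite genes 26 rose (median 2.24), and 1 more list member, DAL1, was too low to test. PUT1, proline oxidase, had 1554 and 1594 CPM in starved cells and 16.2 and 16.4 in unstressed cells (6.59 ± 0.23). MEP2, the ammonium permease and sensor, rose by 5.34 ± 0.18, UGA4, the GABA permease, by 6.35 ± 0.22 and GAP1, the general amino acid permease, by 3.95 ± 0.15. URE2, the repressor of these genes, fell (-0.97 ± 0.15). PUT2 did not pass (-0.13).

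Amino acid biosynthesis was mixed. Of 57 genes 19 rose (33.3%) and 20 fell (35.1%), near the 33.0% and 34.3% of all genes. The median of -0.05 became 0.02 with relative log expression factors. Lysine genes were among those that rose: LYS20, homocitrate synthase, had 1899 and 2359 CPM in starved cells and 86.0 and 89.9 in unstressed cells (4.60 ± 0.27), LYS1 rose by 3.37 ± 0.19, LYS21 by 2.55 ± 0.23 and LYS9 by 2.54 ± 0.16. MET16 (3.42 ± 0.24) and MET17 (2.43 ± 0.16) of sulfate assimilation and CPA1 of arginine synthesis (2.54 ± 0.14) rose. HIS1 had 97.7 and 97.7 CPM in starved cells and 814.1 and 818.2 in unstressed cells (-3.06 ± 0.18), and HIS7, ILV3, ILV5 and PRO1 fell by 1.77 to 2.31. MET16 and LYS1, which rose, hold the TGACTC letters shown above, found in 11.9% of the promoters of risers and 10.3% of those of fallers.

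Other nutrient lists were mixed. Of 19 genes in the phosphate regulon list 6 rose (31.6%) and 7 fell (36.8%), near the 33.0% and 34.3% of all genes. The list also holds CTF19, a gene from outside the regulon, which did not pass (0.11). PHO89 had 477.9 and 516.2 CPM in starved cells and 1.31 and 1.33 in unstressed cells (8.54 ± 0.29), SPL2 rose by 4.72 ± 0.37 and GIT1 by 3.80 ± 0.33, but PHO84, the main high-affinity transporter, stood at 0.20 and PHO3 fell (-2.19 ± 0.15). Of 22 iron regulon genes 13 rose (59.1%) and 4 fell (18.2%), against 33.0% and 34.3% of all genes. The mRNA decay factor gene CTH1 rose by 2.79 ± 0.13, and the falls were FTR1, the iron permease (-2.86 ± 0.20), SMF3, SIT1 and ENB1. Of 25 ergosterol genes 19 fell (median -1.12), such as ERG1 (-1.98 ± 0.12), and ECM22, HMG2 and ERG9 rose, HMG2 with a call lost when some single libraries were left out and ERG9 close to the threshold (0.35 ± 0.14, adjusted p = 0.0474). In fatty acid synthesis 8 of 14 genes fell (57.1%) and 4 rose (28.6%), against 34.3% and 33.0% of all genes. The elongase genes ELO1, ELO2 and ELO3 fell by 1.66 to 2.05. OLE1, the desaturase, had 2197 and 2383 CPM in starved cells and 198.0 and 205.1 in unstressed cells (3.51 ± 0.26). FAA1 rose by 2.29 ± 0.13.

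Transcripts of genes for ribosome production fell, from those of its transcription machinery to those of ribosomal proteins. Among 138 genes for cytosolic ribosomal proteins there were 132 falls and no rise (median -2.16), and their share of counts was 3.95 ± 0.0353% in starved cells and 20.7 ± 0.401% in unstressed cells (SD, n = 2 each). RPS1B had 400.5 and 402.0 CPM in starved cells and 3932 and 3640.1 in unstressed cells (-3.24 ± 0.33), while RPL10 (-0.44 ± 0.45), RPP0 (-0.19), RPL4A (-0.35), RPL15B (0.27), RPL41A (-0.93) and RPL41B (-1.61) did not pass. Many of these genes have near-identical copies between which counting may have split reads. All 36 small subunit processome genes fell, from UTP20 (-0.68) to UTP9, which had 38.4 and 30.7 CPM in starved cells and 299.9 and 292.8 in unstressed cells (-3.10 ± 0.16). Of 43 large subunit assembly genes 41 fell (median -2.15), RRS1 with 25.2 and 25.9 CPM in starved cells and 254.2 and 251.9 in unstressed cells (-3.31 ± 0.13) and BRX1 likewise (-2.90 ± 0.13). REA1, a very large ATPase of the same pathway, rose (0.83 ± 0.25), a call lost with some single libraries left out. BRX1 and UTP9 hold the PAC and RRPE letters shown above.

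Transcripts for both polymerases that serve the ribosome fell in part. Of 14 RNA polymerase I genes 10 fell (median -1.99): RPA43 had 27.4 and 29.8 CPM in starved cells and 198.2 and 202.1 in unstressed cells (-2.81 ± 0.14) and RPC19, shared with polymerase III and with 66.4% of its feature overlapped by another, fell too (-3.59), whereas the largest subunit gene RPA190 fell less (-0.72) and RPA14, RRN6, RRN7 and HMO1 did not pass. Of 19 polymerase III genes 15 fell (median -0.92), and MAF1, its repressor, stood at 0.26 ± 0.32. Translation factors followed: 23 of 28 initiation factor genes fell (median -1.23), CDC33, the cap-binding protein (-2.40), and CAF20, its inhibitor (-3.09), among them, while DED1, the RNA helicase, had 450.7 and 565.3 CPM in starved cells and 46.0 and 47.1 in unstressed cells and rose by 3.45 ± 0.16. Of 19 tRNA synthetase genes 15 fell and none rose (median -1.01), for example MES1 (-1.66 ± 0.12). Of 15 elongation and release factor genes 9 fell, such as SUP45 (-2.54 ± 0.14), and HEF3 (4.81 ± 0.29) and CAM1 (0.69 ± 0.20, lost with some single libraries left out) rose.

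Cell cycle and replication genes fell. Of 17 cyclin and inhibitor genes 12 fell and none rose (median -1.03). CLB2, the main mitotic cyclin, had 13.1 and 10.4 CPM in starved cells and 105.2 and 101.2 in unstressed cells (-3.13 ± 0.22) and PCL1 fell too (-3.75), whereas CLN3 (0.63 ± 0.41) and the inhibitor gene SIC1 (0.36 ± 0.21) did not pass. Of 32 replication genes 24 fell and none rose, POL30, the sliding clamp, among them (-2.20), and of 11 core histone genes and histone chaperones 7 fell, led by ASF1 (-2.81). Nucleotide synthesis had 17 falls (56.7%) and 5 rises (16.7%) among 30 genes (median -0.78), against 34.3% and 33.0% of all genes. RNR1, of ribonucleotide reductase, fell (-2.51 ± 0.21) and RNR3, its inducible paralog, rose (2.07 ± 0.36).

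Of 26 pheromone and mating genes 15 fell (57.7%) and 6 rose (23.1%), against 34.3% and 33.0% of all genes (median -1.14). STE3, the a-factor receptor of alpha cells, had 136.2 and 131.0 CPM in starved cells and 669.7 and 664.7 in unstressed cells (-2.32 ± 0.17), and MF(ALPHA)1 fell further (-3.51 ± 0.17). The 3 alpha-specific markers, STE3, MF(ALPHA)1 and MF(ALPHA)2, all fell, and summed to 561.3 and 592.2 CPM in starved cells and 4676 and 4373 in unstressed cells. The a-specific genes STE2, BAR1, MFA1 and MFA2, which an alpha strain keeps repressed, all rose and summed to 54.5 and 65.8 CPM in starved cells and 23.0 and 18.8 in unstressed cells; none was at 0, AGA2, also a-specific, did not pass (0.65), and the part of other cells in this was not tested. MFA2 led them with 14.4 and 17.0 CPM in starved cells and 2.35 and 1.25 in unstressed cells (3.13 ± 0.32). Of 25 meiosis genes tested 18 rose (median 1.44), IME1, the initiator, with 109.7 and 100.8 CPM in starved cells and 4.60 and 5.75 in unstressed cells (4.34 ± 0.34), while NDT80, the middle meiosis activator, stood at 0.02 and SPO12 fell (-2.22 ± 0.27). Genes of later sporulation, such as SPO20 (4.26), SPS100 (3.93) and DIT1 (2.74), rose too. Of early meiosis, SPO11 (2.16), DMC1 (2.11) and HOP1 (1.33) rose, while ZIP1 (-0.28) and MEI4 (0.63) did not pass.

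Nab2 works in mRNA export and poly(A) metabolism. Among 36 genes for mRNA export and for binding poly(A) RNA 9 rose (25.0%) and 14 fell (38.9%), with a median of -0.36. Of all genes tested 33.0% rose and 34.3% fell. MEX67, the main export receptor, had 196.8 and 197.8 CPM in starved cells and 72.1 and 68.5 in unstressed cells (1.49 ± 0.19), NPL3, a shuttling mRNA-binding protein, rose by 2.35 ± 0.43 and GFD1, which binds Nab2 and Dbp5 at the pore, by 2.80 ± 0.23. The export helicase genes DBP5 (-2.12 ± 0.13) and SUB2 (-1.84 ± 0.22) and the cleavage factor gene HRP1 (-1.50 ± 0.16) fell. PAB1, the cytoplasmic poly(A)-binding protein gene, stood at 0.20 ± 0.38 (adjusted p = 0.66). Of 27 pore genes 13 fell (48.1%) and 2 rose (7.41%), NSP1 and NUP157, both with calls lost when some single libraries were left out. Of 23 nuclear RNA surveillance genes 19 fell (median -1.36), including the TRAMP genes AIR1 (-3.16) and TRF5 (-2.55), while NAB3 (1.46 ± 0.37) and SEN1 (1.06 ± 0.24) of the termination complex rose. Of 32 decay and granule genes 6 rose (18.8%), DED1, NGR1, EDC1, DHH1, EDC2 and DCP2, and 13 fell (40.6%), such as LSM3 (-1.94). Of 41 spliceosome genes 5 rose (12.2%), PRP46, MSL5, SMX3, MUD1 and PRP8, and 16 fell (39.0%), such as PRP39 (-2.04).

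The response was set against that of the 2 other strains with interaction terms in the same fit, where 29.7% of genes rose and 30.3% fell in the interface mutant and 31.7% rose and 34.5% fell in wild type. The rise or fall differed between the IDR mutant and wild type for 687 genes (11.7%), 365 with a higher (6.24%) and 322 with a lower (5.50%) log2 change in the IDR mutant. Carbon source genes were on the higher side: 10 of 16 gluconeogenesis genes (median difference 1.76), 4 of 5 carnitine genes (1.77) and 6 of 17 beta-oxidation genes (1.07), with none lower. Against the interface mutant no gene of these lists differed past the threshold, at median differences of 0.16, 0.62 and 0.10. MLS1 rose by 7.81 in the IDR mutant and 4.30 in wild type, a difference of 3.51 ± 0.34 (adjusted p = 0.00394), with 61.8 and 78.2 CPM in starved wild type and 3.91 and 3.16 in unstressed wild type. YAT2 (3.43 ± 0.41), CIT3 (3.13 ± 0.32) and UGA4 (2.64 ± 0.29) differed likewise, and 11 of 28 nitrogen genes were on the higher side. Several lists for ribosome assembly and translation had genes on the lower side: 17 of 36 processome genes (median difference -0.91), 16 of 43 large subunit assembly genes (-0.97), 10 of 28 initiation factor genes (-0.84) and 10 of 19 tRNA synthetase genes (-1.09), with none higher in these 4 lists. Of 15 elongation and release factor genes 1 was higher and 4 were lower, and of 138 ribosomal protein genes 16 were lower at a median difference of -0.09. MES1 fell by 1.66 in the IDR mutant and by 0.37 in wild type (-1.30 ± 0.16). No Hsf1-type chaperone gene differed past the threshold, at a median difference of 0.09.

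The unstressed wild type pair was uneven, and its part in these differences was not tested. In the unstressed IDR mutant ribosomal protein genes held 21.0% and 20.4% of counts, against 34.3% in replicate 1 and 21.3% in replicate 2 of unstressed wild type, and the wild type pair's Spearman correlation was 0.918. Without that replicate 1, 1488 genes differed, without replicate 2, 3209, and without starved wild type replicate 1, 32. The NAB2 transcript itself rose in wild type (1.70 ± 0.40), where the IDR mutant had -0.35, a difference of -2.05 ± 0.55 (adjusted p = 0.0454). Omitting an unstressed wild type library made it -1.50 (replicate 1) or -2.98 (replicate 2), and it lost its call without any 1 of the starved wild type or IDR mutant libraries (adjusted p = 0.116 to 0.147).

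From the interface mutant the response differed for 129 genes (2.20%), 55 with a higher (0.940%) and 74 with a lower (1.26%) log2 change in the IDR mutant. The starved interface pair was less alike (Spearman 0.966) than the other IDR and interface mutant pairs (0.993 to 0.997), its part was not tested, and without its replicate 2 edgeR called 12 genes. UGA4 rose by 6.35 in the IDR mutant against 4.26 for the interface strain (difference 2.09 ± 0.29, adjusted p = 0.0218), and CPS1 by 4.74 and 3.21 (1.53 ± 0.19). SSA4 rose by 6.60 in the IDR mutant against 8.47 for the interface strain (-1.87 ± 0.23, adjusted p = 0.0143). RPA43 stood at -2.81 in the IDR mutant against -1.49 for the interface strain (-1.32 ± 0.19). Leaving out any 1 IDR mutant or unstressed interface mutant library, edgeR called 0 genes, with 691 to 815 at an unadjusted p under 0.05, and without unstressed wild type replicate 1 it called 1422. DESeq2 with all libraries called 473.

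**Figure D5:**
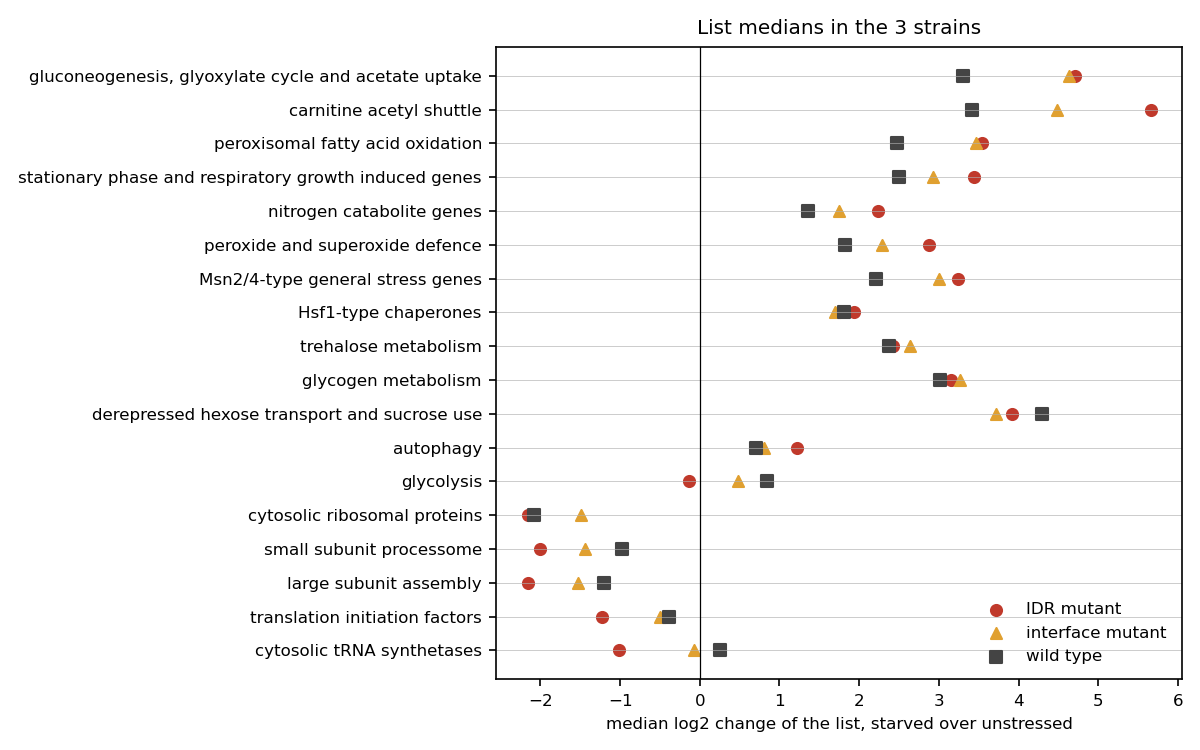
Median log2 change, starved over unstressed, of 18 gene lists (y) in the IDR mutant (red circles), interface mutant (yellow triangles) and wild type (dark squares). Gluconeogenesis stood at 4.71 in the IDR strain, 4.63 in the interface mutant and 3.30 in wild type, and tRNA synthetases at -1.01, -0.07 and 0.25.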

How the data were processed

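Poly(A) RNA was selected with oligo(dT) and sequenced strand-specifically, per the labels. The authors deposited raw counts per feature. Per the file headers these counts came from featureCounts 2.0.1, counted on the reverse strand; reads with several alignments were kept in fractional mode, and reads over more than 1 feature were dropped. The deposited values are whole numbers. Trimming with cutadapt and alignment with TopHat2 are named in the submitters' processing notes, with versions not given in the sources used here. Build and annotation were R64 and release R64-2-1; 5917 of 6600 features matched RefSeq by locus name.

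All 12 whole cell libraries were fitted in 1 model with 6 group means by edgeR 4.0.16 (R 4.3.3): TMM factors, a filterByExpr filter (minimum count 10), quasi-likelihood F tests, and adjustment by Benjamini-Hochberg over all 5853 genes, with a threshold of 0.05. The pipeline was tested on simulated counts in which few genes changed. Most genes changed in these data, so that test does not measure the error rates here. DESeq2 1.42.0 was an alternative.

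The members, the 57 gene lists and the tests were chosen with earlier results of these data known. Genes were named by a rule: NAB2 and deleted markers, the 15 largest rises and falls (at least 10 CPM, libraries not overlapping, under 50% of the feature overlapped), from each list the 4 members of smallest p at most, with 2 more at most that moved against it, families of up to 10, and the 6 largest differences between strains each way. The text also names members outside the rule, chosen after their values were seen, as were the genes ranked by TPM and the 18 pairs. Omission of single libraries was examined for genes named by the rule only. Promoters came from the R64 reference, where 99.9% of 5869 matched coding features started with ATG. A few list members are not reported here.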

Additional observations from a re-analysis of the deposited data

Results flagged for a closer look

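These results were picked out because the response to starvation differed between strains by a test of the difference itself (edgeR, IDR mutant minus the other strain, in log2 units, adjusted p under 0.05). Against wild type 687 genes differed. Among the named genes the largest positive differences were in MLS1 (3.51), YAT2 (3.43), YAT1 (3.19), CIT3 (3.13), SPG1 (2.82) and UGA4 (2.64), which serve the glyoxylate cycle, carnitine shuttle, citrate synthesis, stationary phase and GABA uptake. The largest negative ones were in NAB2 (-2.05), ADE4 (-1.49), RPC31 (-1.47), HRP1 (-1.36), MES1 (-1.30) and RPA43 (-1.24). Of these 12, 6 (HRP1, NAB2, RPA43, RPC31, SPG1 and YAT1) lost the call with some single library left out, and 0 lost it under DESeq2 or with the replicate block.

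Against the interface mutant 129 genes differed. The largest positive differences among named genes were in ASF1 (3.39), UGA4 (2.09), PHO89 (1.92), FMP45 (1.72), CPS1 (1.53) and GAP1 (1.33), and the largest negative ones in SSA4 (-1.87), HSP30 (-1.47), TPK3 (-1.34), HSP26 (-1.33), RPA43 (-1.32) and HRP1 (-1.27). ASF1 had 18.3 and 13.0 CPM in the starved IDR mutant against 3.11 and 0.760 in the starved interface mutant. All 12 lost the call with some single library left out, 7 with the replicate block and 0 under DESeq2. The causes of these differences were not tested.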

How the results depend on the processing

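The starvation response in the IDR mutant called 3941 genes, 3643 to 4830 under other settings except a 2-fold threshold (2000), and 3235 to 4654 without 1 library. No named gene reversed under the alternatives run. Of 278 named genes with a call, 20 lost it with some library left out, 47 against a 2-fold threshold and 4 under another alternative. Among list medians, amino acid biosynthesis changed sign with relative log expression factors, DESeq2 and a minimum of 10 CPM, glycolysis without starved replicate 1 and the phosphate regulon without unstressed replicate 2.

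The difference from wild type, 687 genes, was 1192 with DESeq2 and 32 to 3209 without 1 library; the difference from the interface mutant, 129 genes, was 473 with DESeq2, 20 with the replicate block and 0 to 1422 without 1 library. Deviations of same-numbered libraries correlated at -0.54 to 0.34 over 15 pairs of groups, 3 of them over 0.1. These mixed values do not settle whether replicate numbers pair the samples. With the replicate block the IDR mutant response had 3938 calls, 3885 of them shared. With 2 libraries a group, the lone library left by an omission is assumed to vary like the others. The causes were not tested.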
